A study of Homo sapiens with 26 samples.

Results

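The genes described here are 6 genes of kidney lineage and tubule identity, namely PAX2, PAX8, CDH6, GGT1, ANPEP and MME. They were taken by gene symbol from the deposited expression tables and are 6 of the 12239 genes listed in at least 1 of the 3 tables. All 6 were listed in every table and passed the filter on low values, so none is left out below. The study measured mRNA in 786-O cells after knockdown of genes that the series counts as nuclear speckle protein genes, and each siRNA is compared with the non-targeting controls of its own table.

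The 26 libraries formed 13 groups of 2. In 10 groups the cells received 1 siRNA, namely SART1 siRNA 4 or 6, DDX39A siRNA 1 or 4, SARNP siRNA 3 or 9, FIBP siRNA 6 or 7, or TMEM259 siRNA 5 or 6. The other 3 groups received a non-targeting siRNA (Qiagen Allstars Neg Ctrl), with 1 group for the SART1 table, 1 for the table of DDX39A and SARNP, and 1 for the table of FIBP and TMEM259. All groups are the same line, 786-O, an established human clear cell renal carcinoma line without functional VHL, grown in medium with 10% serum under atmospheric oxygen. All were transfected with DharmaFECT 1, moved to fresh medium after 24 h and harvested 48 h after transfection. The labels do not tell if duplicates are separate transfections, so p-values measure the spread between libraries, which may be technical.

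PAX2 and PAX8 are paired-box transcription factors that specify the kidney during development, and PAX8 stays on in much of the adult nephron epithelium and in clear cell renal carcinoma. CDH6, also called K-cadherin, is an adhesion protein of the early nephron and the proximal tubule. GGT1, ANPEP and MME are ectoenzymes of the proximal tubule brush border: GGT1 starts the breakdown of extracellular glutathione, ANPEP (aminopeptidase N, CD13) trims single amino acids from the amino end of peptides, and MME (neprilysin, CD10) cleaves small peptides internally.

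Reads assigned to genes ranged from 8966609 to 26128173 per library. Every knocked-down mRNA was lower in its own libraries than in both controls, at 8.48% (SARNP siRNA 9) to 48.3% (TMEM259 siRNA 6) of the control mean. The cells carried mRNA of epithelial keratins KRT8 and KRT18, and of the clear cell carcinoma genes EPAS1, CCND1, VEGFA and CA12. The epithelial genes TJP1 and CLDN1 were also listed, whereas CDH1 and OCLN were listed in no table and EPCAM stood at 55.3 to 102 in controls. Of the other carcinoma genes looked for, CA9 and NDUFA4L2 were not listed and ANGPTL4 stood at 9.55 to 45.8 in controls. The tubule genes LRP2 and CDH16 were not listed. CUBN was listed only in the FIBP and TMEM259 table (9.44 in controls). The cells also carried mRNA of vimentin (VIM), a filament protein of mesenchymal and dedifferentiated cells. Its control signal was 60578 in the DDX39A and SARNP table, 87655 in the FIBP and TMEM259 table and 154844 in the SART1 table. These tables were normalized apart. Of 7 fibroblast markers 2 or 3 were listed, with a summed signal of 39.2 to 199 over the libraries. Of 8 endothelial and leukocyte markers only CD68, a lysosomal membrane protein, was listed, at 132 to 404. CD68 rose with both FIBP siRNAs, by 0.32 and 0.46 on the log2 scale (SE 0.11 each), and with DDX39A siRNA 4 (0.48), and it was lower with SART1 siRNA 6 (-0.63) and SARNP siRNA 9 (-0.48). No fibroblast marker was called higher with any siRNA. SART1 siRNA 4 lowered 2 of 3 (list median -0.49, where 57.7% of all genes changed either way) and FIBP siRNA 7 lowered 2 of 3 (-1.04, 34.1%). DDX39A siRNA 1 (-0.65, 33.2%), SARNP siRNA 3 (-0.60, 41.3%) and SARNP siRNA 9 (-1.03, 58.4%) each lowered 1 of 2. These markers had low signal, such as PDGFRB at 16.5 to 46 in controls, and nothing is read from their counts. Of the 5 epithelial genes tested, DDX39A siRNA 1 raised 5 (33.2% of all genes changed) and siRNA 4 raised 3 (49.0%), with 0 lowered. SART1 siRNAs 4 and 6 raised 3 and 4 (57.7% and 62.9%) and TMEM259 siRNA 5 raised 4 (22.8%), with 0 lowered. SARNP siRNA 3 raised 0 and lowered 4 (41.3%), and siRNA 9 raised 2 and lowered 1 (58.4%). FIBP siRNA 6 raised 1 and lowered 1 (22.6%), siRNA 7 raised 2 and lowered 2 (34.1%), and TMEM259 siRNA 6 changed 0 (19.4%). The part of all these markers in the results below was not tested. In RNA from bulk cultures, fewer cells expressing a gene and less mRNA per cell cannot be told apart.

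The plainest pattern was in DDX39A knockdown, where PAX2, PAX8, CDH6 and GGT1 rose with both siRNAs. Those calls held under every alternative processing described below. In SART1 knockdown the peptidases ANPEP and MME and the factors PAX2 and PAX8 fell with both siRNAs while GGT1 rose. Of these 5 genes only ANPEP kept its call with both SART1 siRNAs under every alternative, and PAX2 kept it with neither. The siRNAs of SARNP gave changes of opposite sign for PAX2, PAX8, CDH6 and GGT1. There the PAX2 call with siRNA 9 and the CDH6 call with siRNA 3 were lost in some alternatives. A gene was called changed at a Benjamini-Hochberg adjusted p below 0.05 in limma, over all genes of the table, on log2(normalized signal + 1). By that test SART1 siRNA 4 changed all 6 genes, raising 1 and lowering 5, where 57.7% of all tested genes changed, and SART1 siRNA 6 changed all 6, raising 2 and lowering 4, against 62.9% of all genes. DDX39A siRNA 1 changed 5 of the 6, raising 4 and lowering 1 (33.2% of all genes changed), and DDX39A siRNA 4 changed 5, all higher (49.0%). SARNP siRNA 3 changed 5, raising 3 and lowering 2 (41.3%), whereas SARNP siRNA 9 changed 5, raising 1 and lowering 4 (58.4%). FIBP siRNA 6 changed 1, which rose (22.6%), and FIBP siRNA 7 changed 4, raising 2 and lowering 2 (34.1%). TMEM259 siRNA 5 changed 3, all higher (22.8%), and TMEM259 siRNA 6 changed 2, both lower (19.4%). The shares of FIBP siRNA 6 and TMEM259 siRNA 6 (1 and 2 of 6) are near those of all genes. The 2 siRNAs of a target, and all siRNAs of a table, share their controls, so agreement between them is not independent.

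**Figure D1:**
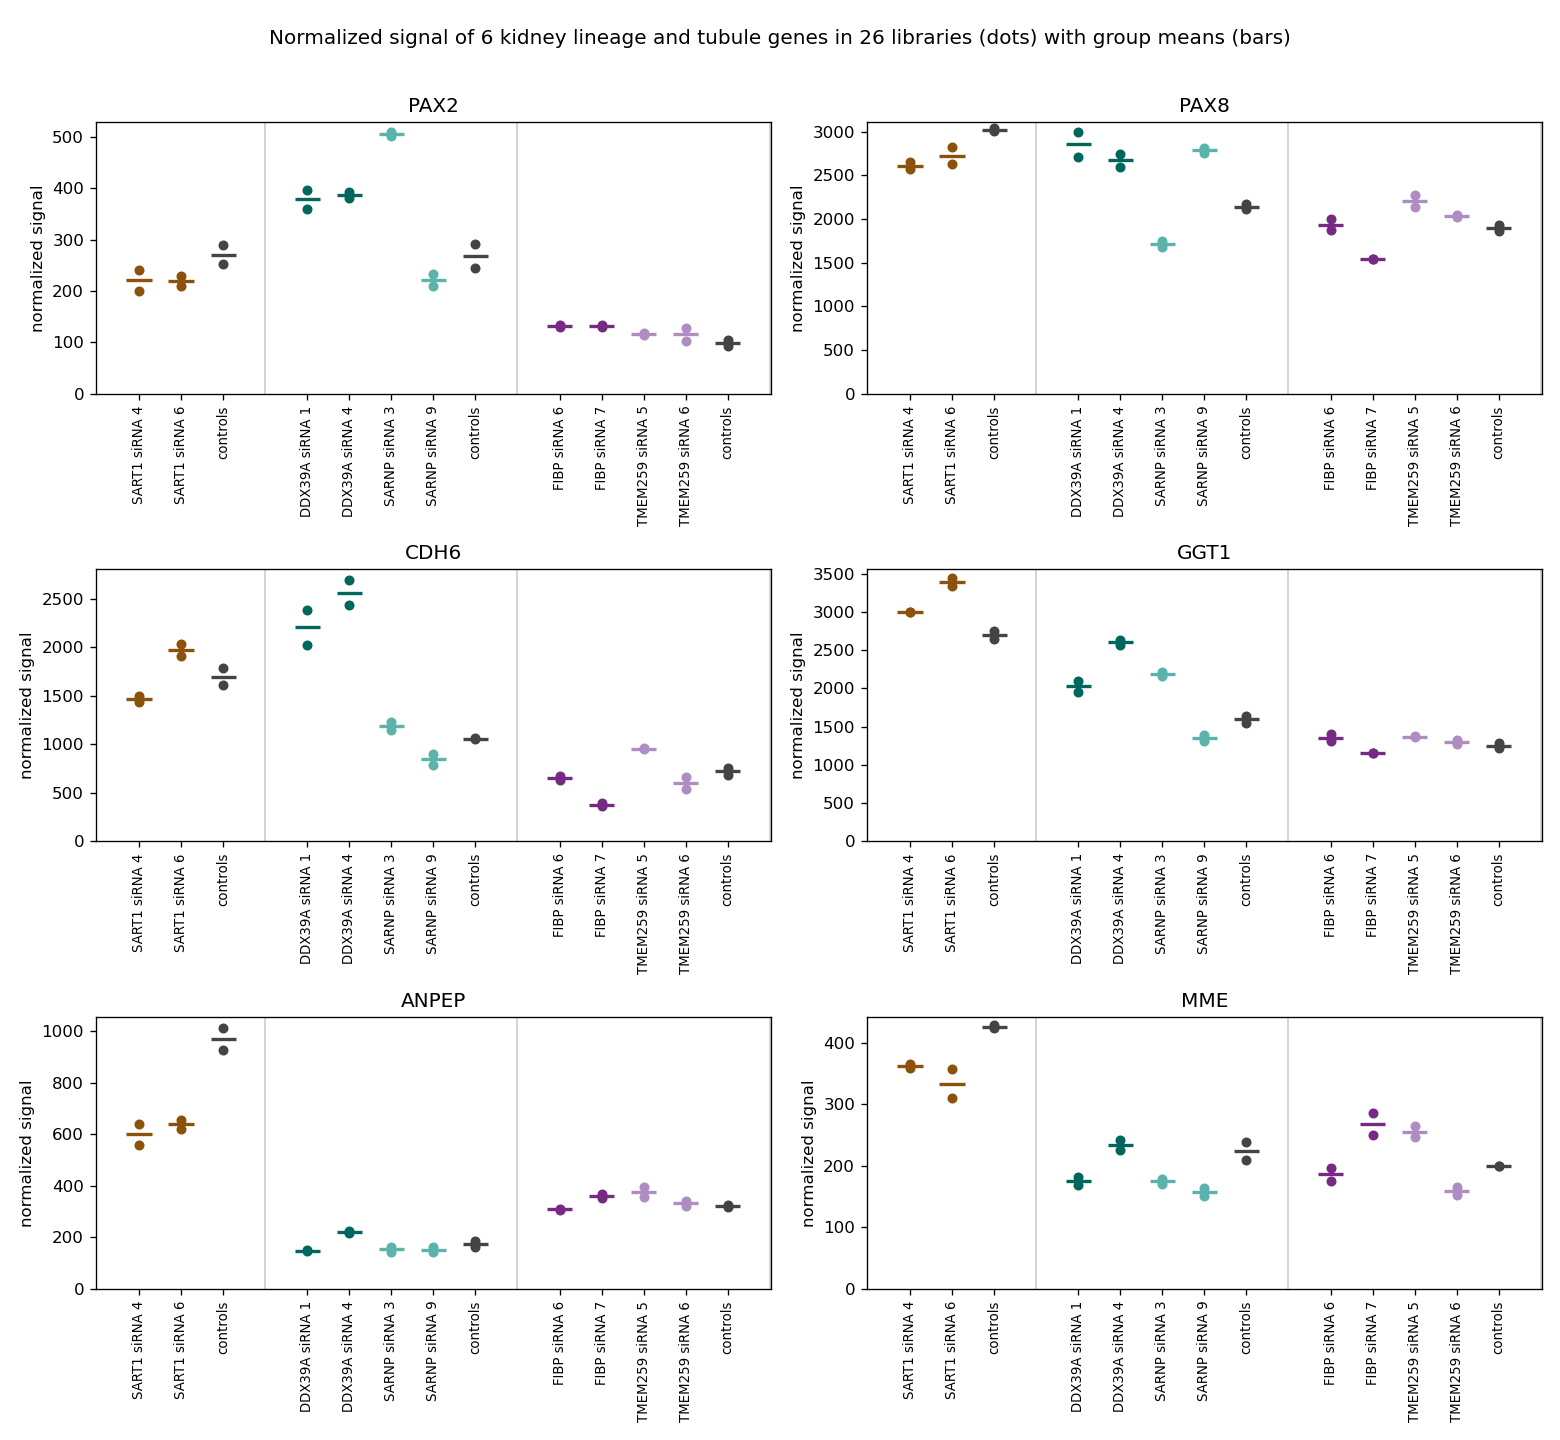
Normalized signal (y axis, from 0) of each gene in the 26 libraries, with 1 dot per library and a bar at the mean of each group of 2. Vertical lines part the SART1, DDX39A and SARNP, and FIBP and TMEM259 tables, which were normalized apart, with each table's controls at the right; CDH6 lies highest in the DDX39A siRNA libraries of its table and ANPEP lies lowest, within the SART1 table, in the SART1 siRNA libraries.

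**Figure D2:**
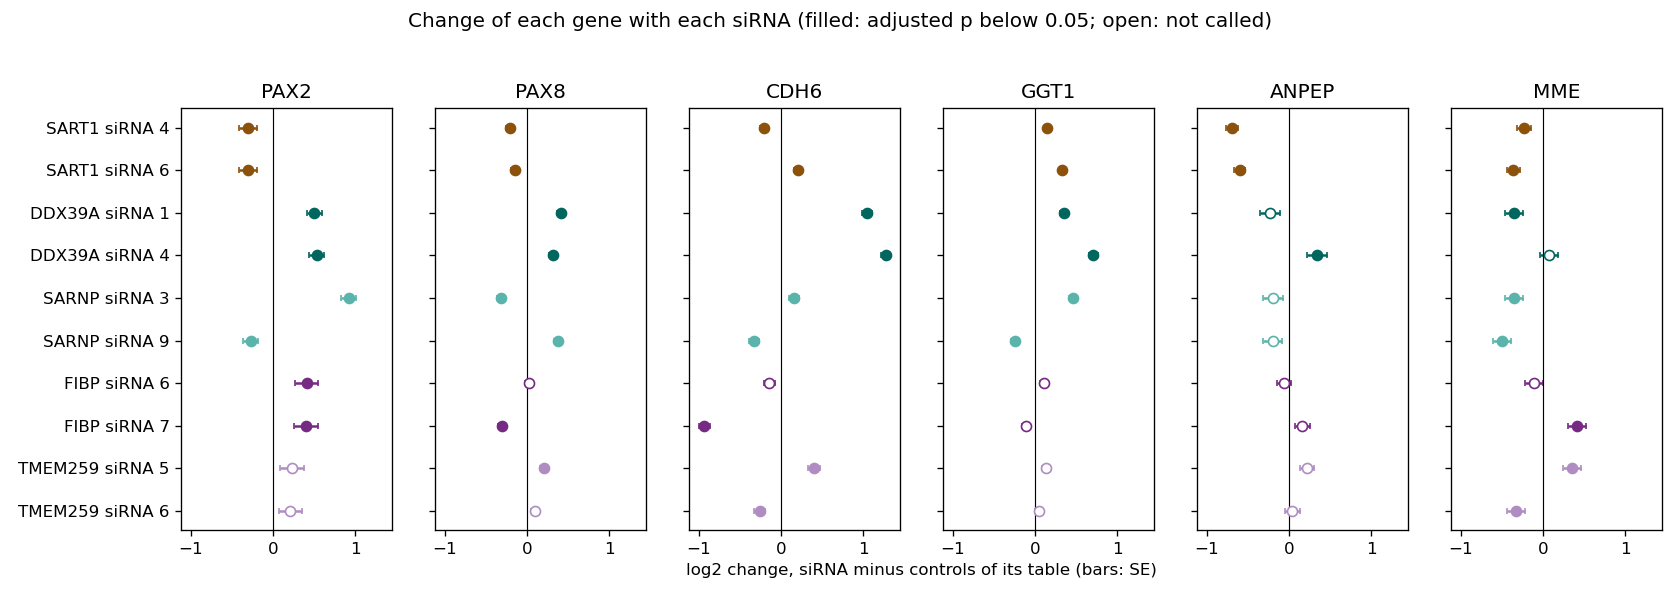
Log2 change with each siRNA against the controls of its own table (x axis; error bars are the SE from limma) for each gene, filled where the adjusted p was below 0.05 and open where it was not. CDH6 spans the widest range, from 1.27 with DDX39A siRNA 4 to -0.93 with FIBP siRNA 7.

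PAX2 was raised by both DDX39A siRNAs and both FIBP siRNAs and lowered by both SART1 siRNAs, and SARNP siRNA 3 raised it while siRNA 9 lowered it. The bases before its 2 RefSeq starts (GRCh38.p14) are shown with those of PAX8 because the 2 factors moved in opposite directions with each SARNP siRNA. The PAX2 windows lie at chr10:100735146-100735395 and chr10:100745332-100745581 (plus strand) and the PAX8 window at chr2:113278922-113279171 (minus strand, printed in the direction of the gene). Each covers the 250 bases before the start, and capitals mark motif matches on either strand:
PAX2 upstream start: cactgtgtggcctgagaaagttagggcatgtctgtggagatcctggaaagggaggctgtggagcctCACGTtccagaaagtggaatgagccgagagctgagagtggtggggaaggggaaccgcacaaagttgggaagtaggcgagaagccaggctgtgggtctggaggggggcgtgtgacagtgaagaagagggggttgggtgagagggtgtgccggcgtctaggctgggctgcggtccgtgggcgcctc
PAX2 downstream start: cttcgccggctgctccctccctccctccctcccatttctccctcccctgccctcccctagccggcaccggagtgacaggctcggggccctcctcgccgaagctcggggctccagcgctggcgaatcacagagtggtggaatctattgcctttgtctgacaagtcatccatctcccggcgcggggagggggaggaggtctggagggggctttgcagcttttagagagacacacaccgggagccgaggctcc
PAX8: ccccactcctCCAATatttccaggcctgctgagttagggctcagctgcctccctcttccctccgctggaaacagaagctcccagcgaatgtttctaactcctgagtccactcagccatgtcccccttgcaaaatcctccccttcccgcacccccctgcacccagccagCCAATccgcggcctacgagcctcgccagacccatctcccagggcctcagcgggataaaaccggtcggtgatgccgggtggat
The motifs searched were the hypoxia response core ACGTG, the TATA box TATAAA, the CCAAT box CCAAT, the AP-1 site TGACTCA and the GC box GGGCGG, none of which shares its matches with another in these windows. The upstream PAX2 window held 1 ACGTG, found in 18.5% of the 35116 RefSeq promoter windows of this length, the downstream one held 0 of these motifs, and PAX8 held 2 CCAAT, present in 32% of windows. Their GC content was 61.6%, 66% and 61.6%, against a median of 58% over all windows. Which start 786-O cells use cannot be read from values per gene.

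With the DDX39A siRNAs PAX2 had a normalized signal of 397.1 and 358.7 (siRNA 1) and of 393.2 and 379.8 (siRNA 4), against 291.7 and 244.6 in the controls. With the SARNP siRNAs it had 502.0 and 508.6 (siRNA 3) and 233.7 and 209.3 (siRNA 9), against the same controls. All DDX39A and SARNP siRNA 3 libraries therefore lay above both controls, and the SARNP siRNA 9 libraries below both. The log2 changes were 0.50 (SE 0.09, adjusted p = 3.96e-05) with DDX39A siRNA 1, 0.53 (SE 0.09, adjusted p = 6.68e-06) with DDX39A siRNA 4 and 0.92 (SE 0.09, adjusted p = 1.28e-10) with SARNP siRNA 3. SARNP siRNA 9 gave -0.27 (SE 0.09, adjusted p = 0.0103), a call lost with DESeq2 and without control replicate 1 (-0.14) or SARNP siRNA 9 replicate 2 (-0.19). From high to low the group means were 505 ± 4.71 with SARNP siRNA 3, 387 ± 9.49 with DDX39A siRNA 4, 378 ± 27.2 with DDX39A siRNA 1, 221 ± 17.2 with SARNP siRNA 9 and, between the last 2, 268 ± 33.4 in controls (SD, n = 2 each). In that order only the 2 DDX39A groups overlapped.

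In the FIBP and TMEM259 table each control library held 99 reads of PAX2. Its normalized signal was 133.7 and 130.0 with FIBP siRNA 6, 129.5 and 133.0 with FIBP siRNA 7, 113.9 and 119.1 with TMEM259 siRNA 5 and 101.8 and 128.9 with TMEM259 siRNA 6, against 104.9 and 93.59 in controls. Both FIBP groups lay above the controls, and 1 TMEM259 siRNA 6 library lay between them. PAX2 rose by 0.41 with FIBP siRNA 6 (SE 0.14, adjusted p = 0.0292) and by 0.40 with FIBP siRNA 7 (SE 0.14, adjusted p = 0.0222), whereas the TMEM259 values of 0.23 and 0.21 (SE 0.14 each) were not called. Both FIBP calls were lost without control replicate 2 (0.33 and 0.32) or without either library of the siRNA (0.38 to 0.43), and with DESeq2. In the SART1 table PAX2 had 240.7 and 200.7 with siRNA 4 and 208.9 and 229.1 with siRNA 6, against 289.9 and 251.5 in controls. All 4 knockdown libraries lay below both controls, and PAX2 fell by 0.30 on the log2 scale with each siRNA (SE 0.11, adjusted p = 0.023 with siRNA 4 and 0.0186 with siRNA 6). The siRNA 4 call was lost without control replicate 1 (-0.19) or siRNA 4 replicate 2 (-0.17), the siRNA 6 call without control replicate 1 (-0.20) or siRNA 6 replicate 1 (-0.24), and both calls with quantile normalization and with DESeq2.

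PAX8 rose with both DDX39A siRNAs, with SARNP siRNA 9 and with TMEM259 siRNA 5, and fell with both SART1 siRNAs, SARNP siRNA 3 and FIBP siRNA 7. It is widely used as a marker of renal epithelial tumours. Its normalized signal was 3000 and 2710 with DDX39A siRNA 1, 2746 and 2597 with DDX39A siRNA 4, 1684 and 1750 with SARNP siRNA 3 and 2818 and 2763 with SARNP siRNA 9, against 2178 and 2111 in controls. The SARNP siRNA 3 libraries were the only ones of this table below the controls. PAX8 changed by 0.41 (adjusted p = 2.52e-08) and 0.32 (adjusted p = 1.54e-06) with DDX39A siRNAs 1 and 4, by -0.32 (adjusted p = 1.73e-06) with SARNP siRNA 3 and by 0.38 (adjusted p = 3.05e-08) with SARNP siRNA 9, each with an SE of 0.05. By group mean the order was DDX39A siRNA 1 (2855 ± 205), SARNP siRNA 9 (2791 ± 38.3), DDX39A siRNA 4 (2671 ± 105), then, below the controls, SARNP siRNA 3 (1717 ± 46.2), against 2145 ± 47.1 in controls (SD, n = 2 each). DDX39A siRNA 1 and SARNP siRNA 9 overlapped and the other neighbours did not.

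In the FIBP and TMEM259 table PAX8 had 1870 and 1999 with FIBP siRNA 6, 1549 and 1544 with FIBP siRNA 7, 2136 and 2273 with TMEM259 siRNA 5 and 2051 and 2028 with TMEM259 siRNA 6, against 1935 and 1869 in controls. FIBP siRNA 6 overlapped the controls and FIBP siRNA 7 lay well under them. PAX8 fell by 0.30 with FIBP siRNA 7 (SE 0.05, adjusted p = 2.24e-06) and rose by 0.21 with TMEM259 siRNA 5 (SE 0.05, adjusted p = 7.78e-04). FIBP siRNA 6 at 0.02 and TMEM259 siRNA 6 at 0.10 were not called. In the SART1 table it had 2574 and 2652 with siRNA 4 and 2823 and 2631 with siRNA 6, against 3008 and 3042 in controls, so every knockdown library was lower. PAX8 fell by 0.21 with siRNA 4 (SE 0.04, adjusted p = 1.55e-04) and by 0.15 with siRNA 6 (SE 0.04, adjusted p = 0.00341), the second a call lost without siRNA 6 replicate 2 (-0.10). PAX8 exons share 685 of 7400 bases with exons of PAX8-AS1 on the opposite strand in GENCODE 29, and since the strand counted is not given in the sources used here, reads of the pair cannot be told apart.

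CDH6 had the widest range of changes of the 6 genes, from 1.27 with DDX39A siRNA 4 to -0.93 with FIBP siRNA 7. It more than doubled with both DDX39A siRNAs. Between the siRNAs of a target 32.1% (TMEM259) to 64.1% (SARNP) of all genes were called different. CDH6 was called different for all 5 targets, though for DDX39A that call was lost in some alternatives, as given further on. Its normalized signal was 2391 and 2025 with DDX39A siRNA 1, 2691 and 2436 with DDX39A siRNA 4, 1144 and 1231 with SARNP siRNA 3 and 903 and 789.6 with SARNP siRNA 9, against 1066 and 1056 in controls. No group of this table overlapped its neighbour. The ratio of means was 2.08 with DDX39A siRNA 1 (log2 1.05, SE 0.06, adjusted p = 1.19e-15) and 2.42 with DDX39A siRNA 4 (log2 1.27, SE 0.06, adjusted p = 1.06e-18). SARNP siRNA 9 lowered CDH6 by a log2 change of -0.33 (SE 0.06, adjusted p = 4.17e-05). SARNP siRNA 3 raised it by 0.16 (SE 0.06, adjusted p = 0.0441), a call lost with edgeR and DESeq2 and without control replicate 1 (0.17), control replicate 2 (0.15) or siRNA 3 replicate 2 (0.11).

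In the FIBP and TMEM259 table CDH6 had 678.0 and 632.1 with FIBP siRNA 6, 392.7 and 366.4 with FIBP siRNA 7, 947.8 and 958.3 with TMEM259 siRNA 5 and 545.1 and 663.9 with TMEM259 siRNA 6, against 686.6 and 759.1 in controls. FIBP siRNA 7 gave the lowest libraries and TMEM259 siRNA 5 the highest. With FIBP siRNA 7 CDH6 stood at 0.525 of the control mean (log2 -0.93, SE 0.07, adjusted p = 7.83e-14), and the change of -0.14 with FIBP siRNA 6 was not called (SE 0.07, adjusted p = 0.178). TMEM259 siRNA 5 raised CDH6 by 0.40 (SE 0.07, adjusted p = 6.36e-05) and siRNA 6 lowered it by a log2 change of -0.26 (SE 0.07, adjusted p = 0.00923). The siRNA 6 call was lost with DESeq2 and without control replicate 2 (-0.19) or siRNA 6 replicate 1 (-0.12). In the SART1 table CDH6 had 1499 and 1434 with siRNA 4 and 1907 and 2033 with siRNA 6, against 1614 and 1786 in controls. The controls lay between the 2 siRNAs, with log2 changes of -0.21 (SE 0.05, adjusted p = 0.00124) and 0.21 (SE 0.05, adjusted p = 9.71e-04). The siRNA 4 call was lost without control replicate 2 (-0.14). CDH6 shares 1109 of its 12379 exon bases with the pseudogene DUX4L51 on the same strand, and 125 with AC113386.1 on the opposite strand. Neither of these was listed, and whether such reads were counted for CDH6 or only entered as ambiguous is not given in the sources used here.

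GGT1 rose with both SART1 siRNAs, both DDX39A siRNAs and SARNP siRNA 3, fell with SARNP siRNA 9 and was not called with any siRNA of FIBP or TMEM259. It had a normalized signal of 3001 and 3003 with SART1 siRNA 4 and 3443 and 3334 with SART1 siRNA 6, against 2643 and 2750 in controls. With the DDX39A siRNAs it had 2096 and 1957 (siRNA 1) and 2633 and 2567 (siRNA 4), against 1637 and 1553 in controls. With the SARNP siRNAs it had 2157 and 2216 (siRNA 3) and 1393 and 1312 (siRNA 9), against the same controls. In the DDX39A and SARNP table the order of the means was DDX39A siRNA 4, SARNP siRNA 3, DDX39A siRNA 1, controls and SARNP siRNA 9, and in neither table did neighbouring groups overlap. The log2 changes were 0.15 (SE 0.04, adjusted p = 0.00183) and 0.33 (SE 0.04, adjusted p = 1.45e-07) with SART1 siRNAs 4 and 6, the first a call lost with quantile normalization (0.08). They were 0.35 (adjusted p = 1.02e-06) and 0.71 (adjusted p = 1.69e-14) with DDX39A siRNAs 1 and 4, 0.46 (adjusted p = 1.75e-09) with SARNP siRNA 3 and -0.24 (adjusted p = 1.13e-04) with SARNP siRNA 9, each with an SE of 0.05.

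GGT1 had 1311 and 1399 with FIBP siRNA 6, 1152 and 1159 with FIBP siRNA 7, 1362 and 1376 with TMEM259 siRNA 5 and 1321 and 1273 with TMEM259 siRNA 6, against 1222 and 1281 in controls. These groups lay close together, and the 4 log2 changes ran from -0.11 (adjusted p = 0.0885) with FIBP siRNA 7 to 0.13 (adjusted p = 0.0678) with TMEM259 siRNA 5. GGT1 belongs to a family with near-identical copies, of which GGT3P and GGT8P were listed at means of 27.52 to 47.78 and 53.6 to 79.36 over the tables. It also shares 306 of its 4434 exon bases with SNRPD3 on the same strand. Ambiguous reads were entered apart from the genes in every library. Reads without a unique alignment were entered apart in the SART1 table and the FIBP and TMEM259 table. Whether some were also counted for a gene is not given in the sources used here, so the level of GGT1 carries that uncertainty.

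ANPEP changed least often. It fell with both SART1 siRNAs, rose with DDX39A siRNA 4 and was not called with the other 7 siRNAs. It had a normalized signal of 641.1 and 559.7 with SART1 siRNA 4 and of 654.6 and 622.9 with SART1 siRNA 6, against 927.8 and 1013 in controls. All 4 knockdown libraries were far below the controls and the 2 siRNAs overlapped each other, at ratios of 0.619 (log2 -0.69, SE 0.07, adjusted p = 9.57e-09) and 0.658 (log2 -0.60, SE 0.07, adjusted p = 7.21e-08). The bases before its 2 RefSeq starts are shown because ANPEP differed most between the controls of the tables, as given further on. They lie at chr15:89814853-89815102 and chr15:89806629-89806878 of GRCh38.p14 (minus strand, printed in the direction of the gene), with capitals as above:
ANPEP upstream start: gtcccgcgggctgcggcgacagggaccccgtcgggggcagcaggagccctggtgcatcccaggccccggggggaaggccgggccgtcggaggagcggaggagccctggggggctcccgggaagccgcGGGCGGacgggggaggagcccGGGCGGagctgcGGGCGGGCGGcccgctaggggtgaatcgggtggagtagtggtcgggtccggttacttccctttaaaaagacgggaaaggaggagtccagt
ANPEP downstream start: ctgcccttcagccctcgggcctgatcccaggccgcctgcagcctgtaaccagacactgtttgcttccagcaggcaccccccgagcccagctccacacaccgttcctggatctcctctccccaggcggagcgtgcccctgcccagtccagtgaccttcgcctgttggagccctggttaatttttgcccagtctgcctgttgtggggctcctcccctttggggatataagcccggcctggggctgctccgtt
The upstream window held 4 GC boxes, of which 2 adjoin and share bases, and had 74% GC. The downstream window held 0 of these motifs and had 64.4% GC. GC boxes were found in 42.6% of all promoter windows.

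In the DDX39A and SARNP table ANPEP had 147.6 and 150.1 with DDX39A siRNA 1, 226.5 and 215.5 with DDX39A siRNA 4, 145.1 and 161.8 with SARNP siRNA 3 and 161.4 and 142.8 with SARNP siRNA 9, against 164.4 and 185.8 in controls. DDX39A siRNA 4 alone lay above the controls, and the 2 SARNP groups and DDX39A siRNA 1 overlapped as neighbours in the order. ANPEP rose by 0.34 with DDX39A siRNA 4 (SE 0.12, adjusted p = 0.0163), a call lost with DESeq2 and without control replicate 1 (0.25) or siRNA 4 replicate 1 (0.30). The other 3 changes of this table ran from -0.23 to -0.19 (SE 0.12 each). In the FIBP and TMEM259 table it had 308.4 and 312.1 with FIBP siRNA 6, 352.8 and 369.4 with FIBP siRNA 7, 355.3 and 397.2 with TMEM259 siRNA 5 and 343.4 and 321.1 with TMEM259 siRNA 6, against 325.3 and 319.5 in controls. The 4 log2 changes ran from -0.06 to 0.22 (SE 0.09 each), the highest with TMEM259 siRNA 5 (adjusted p = 0.0578).

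MME fell with 6 of the 10 siRNAs, rose with FIBP siRNA 7 and TMEM259 siRNA 5 and was not called with DDX39A siRNA 4 or FIBP siRNA 6. In the SART1 table it had a normalized signal of 359.1 and 364.9 with siRNA 4 and 309.6 and 356.9 with siRNA 6, against 424.0 and 428.0 in controls. All knockdown libraries were below the controls. MME fell by 0.23 with siRNA 4 (SE 0.08, adjusted p = 0.0194) and by 0.36 with siRNA 6 (SE 0.08, adjusted p = 6.94e-04). The siRNA 4 call was lost with quantile normalization (-0.17), with DESeq2 and without control replicate 1 (-0.24), control replicate 2 (-0.23) or siRNA 4 replicate 1 (-0.22).

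In the DDX39A and SARNP table MME had 169.3 and 181.1 with DDX39A siRNA 1, 241.7 and 226.0 with DDX39A siRNA 4, 171.1 and 178.7 with SARNP siRNA 3 and 151.3 and 164.7 with SARNP siRNA 9, against 209.0 and 238.2 in controls. DDX39A siRNA 4 overlapped the controls, and the other 3 groups lay below both. MME changed by -0.35 with DDX39A siRNA 1 (SE 0.11, adjusted p = 0.0126), by -0.35 with SARNP siRNA 3 (SE 0.11, adjusted p = 0.00972) and by -0.50 with SARNP siRNA 9 (SE 0.11, adjusted p = 2.00e-04). The first 2 calls were lost with DESeq2, without control replicate 2 (-0.25 and -0.26), and without DDX39A siRNA 1 replicate 1 (-0.30) or SARNP siRNA 3 replicate 1 (-0.32). In the FIBP and TMEM259 table it had 196.7 and 175.3 with FIBP siRNA 6, 249.4 and 285.2 with FIBP siRNA 7, 246.5 and 264.0 with TMEM259 siRNA 5 and 152.8 and 165.8 with TMEM259 siRNA 6, against 200.3 and 199.5 in controls. FIBP siRNA 7 and TMEM259 siRNA 5 lay above the controls and overlapped each other, and TMEM259 siRNA 6 gave the lowest libraries. The log2 changes were 0.41 (SE 0.11, adjusted p = 0.00212) with FIBP siRNA 7, 0.35 (SE 0.11, adjusted p = 0.0143) with TMEM259 siRNA 5 and -0.33 (SE 0.11, adjusted p = 0.026) with TMEM259 siRNA 6. The FIBP siRNA 7 call was lost without its replicate 2 (0.32), the siRNA 5 call with DESeq2 and without either control (0.35 each) or its replicate 2 (0.30), and the siRNA 6 call with quantile normalization, with DESeq2 and without control replicate 1 (-0.32), control replicate 2 (-0.33) or its replicate 1 (-0.27). MME shares 214 of 9620 exon bases with MME-AS1 on the opposite strand, so the limit given for PAX8 holds here too.

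The siRNAs of a target were then compared directly, without the controls. SARNP siRNA 9 against siRNA 3 changed 4 of the 6 genes, 1 higher and 3 lower, a share near the 64.1% of all genes. PAX2 was lower with siRNA 9 than with siRNA 3 by a log2 difference of -1.19 (SE 0.09, adjusted p = 3.16e-14), CDH6 by -0.49 (SE 0.06, adjusted p = 2.70e-08) and GGT1 by -0.69 (SE 0.05, adjusted p = 7.58e-15), whereas PAX8 was higher by 0.70 (SE 0.05, adjusted p = 3.68e-15). ANPEP (-0.01) and MME (-0.15) were not called different. SARNP mRNA itself stood at 8.48% of control with siRNA 9 and 13.5% with siRNA 3.

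TMEM259 siRNA 5 against siRNA 6 changed 2 of the 6 genes, both higher with siRNA 5 (32.1% of all genes changed). CDH6 was higher with siRNA 5 by 0.66 (SE 0.07, adjusted p = 1.60e-09) and MME by 0.68 (SE 0.11, adjusted p = 2.66e-06), in both cases with the controls between the 2 siRNAs. FIBP siRNA 7 against siRNA 6 changed 5, of which 2 were higher with siRNA 7 and 3 lower (35.7%). CDH6 was lower with siRNA 7 by -0.79 (SE 0.07, adjusted p = 7.26e-12), PAX8 by -0.32 and GGT1 by -0.23, whereas MME was higher by 0.52 (SE 0.11, adjusted p = 1.35e-04) and ANPEP by 0.22, a call lost with quantile normalization, with DESeq2, with only the groups compared in the fit and without any 1 of the 4 libraries (0.18 to 0.25). DDX39A siRNA 4 against siRNA 1 changed 4, all higher with siRNA 4 (50.6%), with differences of 0.57 for ANPEP, 0.41 for MME, 0.36 for GGT1 and 0.22 for CDH6. The CDH6 difference was lost with DESeq2 and without siRNA 1 replicate 2 (0.10) or siRNA 4 replicate 1 (0.15). SART1 siRNA 4 against siRNA 6 changed 2, both lower with siRNA 4 (38.5%), CDH6 by -0.43 (SE 0.05, adjusted p = 5.82e-07) and GGT1 by -0.17 (SE 0.04, adjusted p = 0.00117).

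**Figure D3:**
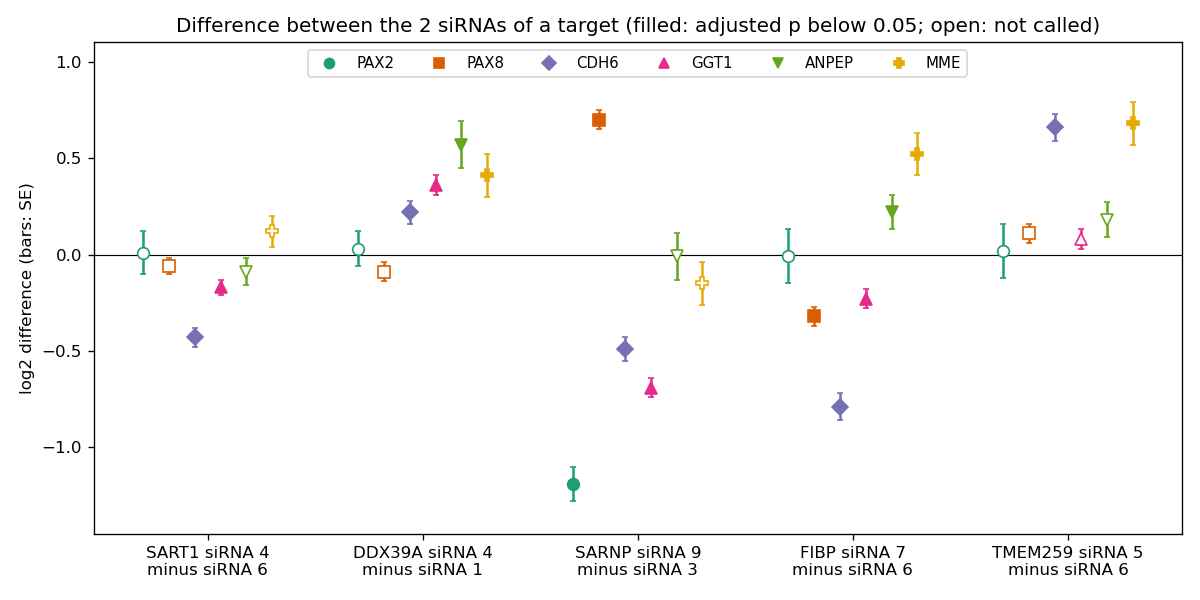
Log2 difference between the 2 siRNAs of each target (y axis; error bars are the SE from limma), with 1 marker per gene, filled where the adjusted p was below 0.05. CDH6 is filled for all 5 targets, though its DDX39A call was lost in some alternatives, and PAX2 is filled only for SARNP, at -1.19.

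Between the targets that share a table, all 6 genes were lower with the SARNP siRNAs than with the DDX39A siRNAs, taking the mean of both siRNAs of each (27.5% of all genes were lower). CDH6 differed most, by -1.25 (SE 0.05, adjusted p = 2.23e-23). The 4 SARNP and the 4 DDX39A libraries did not overlap for CDH6 and did for the other genes. How many of all genes lack such overlap was not counted, so nothing is read from this. GGT1 differed by -0.42, PAX8 by -0.33, MME by -0.28, ANPEP by -0.25 and PAX2 by -0.19. The PAX2 call was lost with DESeq2 and without DDX39A siRNA 1 replicate 1 (-0.15) or SARNP siRNA 9 replicate 2 (-0.15), and the ANPEP call with DESeq2 and without SARNP siRNA 3 replicate 1 (-0.21) or SARNP siRNA 9 replicate 2 (-0.20). The TMEM259 siRNAs differed from the FIBP siRNAs in 3 of the 6 genes, all higher (37.1% of all genes differed), namely CDH6 by 0.60 (SE 0.05, adjusted p = 1.02e-12), PAX8 by 0.29 (SE 0.03, adjusted p = 1.64e-09) and GGT1 by 0.09 (SE 0.04, adjusted p = 0.0498). The GGT1 call was lost with no filter, with DESeq2, with the replicate block, with only the groups compared in the fit and without any 1 of 7 of the 8 libraries (0.07 to 0.10). The SE here reflects duplicate libraries and not the gap between the siRNAs of a target. For 5 of the 6 genes the gap between the siRNAs of SARNP or of DDX39A was wider than the difference between these targets: PAX2 (-1.19), PAX8 (0.70) and GGT1 (-0.69) in SARNP, and ANPEP (0.57) and MME (0.41) in DDX39A. CDH6 was the exception there, but its gaps between the siRNAs of FIBP (-0.79) and of TMEM259 (0.66) were wider than its 0.60 between those targets.

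Other kidney genes were read from lists written with these results known. Their counts stand beside the share of all genes changed, either way, which was 57.7% and 62.9% with SART1 siRNAs 4 and 6, 33.2% and 49.0% with DDX39A siRNAs 1 and 4, 41.3% and 58.4% with SARNP siRNAs 3 and 9, 22.6% and 34.1% with FIBP siRNAs 6 and 7 and 22.8% and 19.4% with TMEM259 siRNAs 5 and 6. The lists hold 3 to 12 tested genes, and nothing particular to a list is read from its counts. Of the 20 other lineage factors, 12 were tested in the SART1 and FIBP and TMEM259 tables and 11 in the DDX39A and SARNP table. DDX39A siRNA 1 raised 4 and lowered 2 of them (median log2 change 0.08) and siRNA 4 raised 4 and lowered 3 (0.10), beside medians over all genes of -0.001 and 0.004. SOX9, a factor of progenitor and injured tubule cells, rose by 0.45 and 0.44 (SE 0.12 each) with siRNAs 1 and 4, and SALL1, a zinc finger factor of nephron progenitors, by 0.32 and 0.33 (SE 0.07 each). SARNP siRNA 3 raised 5 and lowered 1 (0.22) and siRNA 9 raised 5 and lowered 2 (0.04), with all-gene medians of 0.001 and -0.002. With SARNP siRNAs 3 and 9 HOXA11 rose by 0.48 and 0.60 (SE 0.15 each), HOXD11 by 0.42 and 0.36 (SE 0.10 each) and SALL1 by 0.51 and 0.18 (SE 0.07 each), HOXA11 and HOXD11 being homeobox genes needed for kidney formation.

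SART1 siRNA 4 raised 1 and lowered 6 of the lineage factors (median -0.20) and siRNA 6 raised 1 and lowered 4 (-0.08), beside all-gene medians of -0.008 and -0.002. These 7 and 5 of 12 are a share near that of all genes (57.7%) and one below it (62.9%). HOXD11 changed by -0.22 and -0.38 (SE 0.09 each) and LHX1, a factor of the early nephron, by -0.18 and -0.33 (SE 0.07 each), with siRNAs 4 and 6. FIBP siRNA 6 raised 3 and lowered 3 (0.06) and siRNA 7 raised 1 and lowered 3 (-0.13), while TMEM259 siRNA 5 raised 0 and lowered 1 (-0.04) and siRNA 6 raised 1 and lowered 1 (0.11). The all-gene medians there were -0.003, 0.000, -0.005 and 0.000 in the same order.

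Among 10 other nephron cadherins and catenins, of which 6 were tested, CDH2 (N-cadherin, an adhesion protein that proximal tubule cells also carry) rose by 0.25 and 0.49 (SE 0.03 each) with SART1 siRNAs 4 and 6 and by 0.25 and 0.11 (SE 0.04 each) with FIBP siRNAs 6 and 7, and it changed by -0.34 and -0.43 (SE 0.04 each) with SARNP siRNAs 3 and 9. With the DDX39A siRNAs, the list had 0 genes raised and 2 lowered by siRNA 1 and 3 raised and 1 lowered by siRNA 4 (medians -0.09 and 0.10). The counts of raised and lowered genes were 2 and 0 with SART1 siRNA 4, 4 and 0 with SART1 siRNA 6, 1 and 2 with SARNP siRNA 3, 0 and 1 with SARNP siRNA 9, 1 and 0 with FIBP siRNA 6, 1 and 1 with FIBP siRNA 7, and 1 and 0 with each TMEM259 siRNA. Their medians ran from -0.10 to 0.21. CDH13, a cadherin anchored by a lipid, rose by 0.40 and 0.30 (SE 0.06 each) with SART1 siRNAs 4 and 6.

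Of 13 other brush border peptidases and enzymes only 3 were tested, namely DPP4, ENPEP and NT5E. DPP4, a dipeptidyl peptidase, rose by 0.49 and 0.52 (SE 0.06 each) with DDX39A siRNAs 1 and 4 (control signal 815). ENPEP (aminopeptidase A) changed by -0.26 and -0.28 (SE 0.04 each) with SART1 siRNAs 4 and 6 and by -0.18 and -0.33 (SE 0.06 each) with FIBP siRNAs 6 and 7. NT5E, the ectonucleotidase CD73, rose by 0.21 and 0.64 (SE 0.07 each) with FIBP siRNAs 6 and 7. SART1 siRNA 4 raised 0 of the 3 and lowered 3, siRNA 6 raised 1 and lowered 1, DDX39A siRNA 1 raised 1 and lowered 0 and siRNA 4 raised 3 and lowered 0. SARNP siRNA 3 raised 2 and lowered 1, siRNA 9 raised 1 and lowered 2, FIBP siRNA 6 raised 1 and lowered 1 and siRNA 7 raised 1 and lowered 2. TMEM259 siRNA 5 changed 0 and siRNA 6 raised 1 and lowered 1. Several of these shares lie near that of all genes, such as 2 of 3 with SART1 siRNA 6 (62.9%) and 1 of 3 with DDX39A siRNA 1 (33.2%). Medians of the 3 ran from -0.40 (SARNP siRNA 9) to 0.71 (DDX39A siRNA 4).

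Of 23 tubule transporters and endocytic genes 9 were tested. SLC9A3R1, which tethers transporters to the brush border, rose by 0.41 and 0.11 (SE 0.04 each) with SART1 siRNAs 4 and 6, by 0.33 and 0.48 (SE 0.06 each) with DDX39A siRNAs 1 and 4, by 0.28 and 0.31 (SE 0.06 each) with SARNP siRNAs 3 and 9 and by 0.33 and 0.39 (SE 0.05 each) with FIBP siRNAs 6 and 7. EZR (ezrin), which links microvilli to actin, changed by -0.20 and -0.24 (SE 0.04 each) with SARNP siRNAs 3 and 9 and by -0.34 and -0.31 (SE 0.04 each) with FIBP siRNAs 6 and 7. PDZK1, a scaffold of brush border transporters, changed by -0.38 and -1.50 (SE 0.12 each) with FIBP siRNAs 6 and 7. Over the 10 siRNAs between 1 and 6 of the 9 genes rose and between 0 and 5 fell, with list medians from -0.24 (SARNP siRNA 9) to 0.28 (SARNP siRNA 3).

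GGT1 acts in the gamma-glutamyl cycle, in which glutathione is made and broken down. Of 12 other genes of the cycle 9 were tested. Over the 10 siRNAs between 1 and 4 of them rose and between 2 and 4 fell, and list medians ran from -0.10 to 0.12. GGCT, which frees amino acids from gamma-glutamyl peptides, changed by -0.13 and -0.12 (SE 0.04 each) with SART1 siRNAs 4 and 6, by -0.22 and -0.69 (SE 0.05 each) with DDX39A siRNAs 1 and 4, by -0.18 and -0.20 (SE 0.05 each) with FIBP siRNAs 6 and 7 and by -0.37 with each TMEM259 siRNA (SE 0.05 each). GSS, the glutathione synthetase, changed by -0.33 and -0.36 (SE 0.05 each) with SART1 siRNAs 4 and 6 and by -0.21 and -0.35 (SE 0.06 each) with SARNP siRNAs 3 and 9. GGT7, a relative of GGT1, changed by -0.39 and -0.29 (SE 0.12 each) with SART1 siRNAs 4 and 6, and rose by 0.57 and 0.39 (SE 0.11 each) with SARNP siRNAs 3 and 9 and by 0.45 and 0.50 (SE 0.15 each) with TMEM259 siRNAs 5 and 6.

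Of 12 genes that mark injured or dedifferentiated tubule cells 9 were tested. With SART1 siRNAs 4 and 6 CD24, a surface protein of tubule progenitor-like cells, changed by -1.05 and -0.86 (SE 0.06 each), and the chemokine CCL2 rose by 0.99 and 1.44 (SE 0.11 each). VCAM1, an adhesion receptor of injured tubules, rose by 0.28 and 1.30 (SE 0.05 each) with the same siRNAs. ITGB6 changed by -0.74 and -0.98 there (SE 0.19 each) and CLU by -0.63 and -0.30 (SE 0.09 each). With DDX39A siRNAs 1 and 4 CCL2 rose by 1.08 and 1.50 (SE 0.17 each), VCAM1 by 0.62 and 0.65 (SE 0.07 each) and CD24 by 0.42 and 0.61 (SE 0.07 each), whereas VIM changed by -0.15 and -0.14 (SE 0.04 each). With SARNP siRNAs 3 and 9 ITGB6 rose by 1.02 and 1.06 (SE 0.16 each). KRT19 changed by -0.42 and -0.80 (SE 0.08 each) with these and VIM by -0.24 and -0.66 (SE 0.04 each). With FIBP siRNAs 6 and 7 KRT19 changed by -0.58 and -0.49 (SE 0.06 each), CD24 by -0.22 and -1.13 (SE 0.06 each) and VIM by -0.17 and -0.12 (SE 0.03 each). Of the 9 genes SART1 siRNA 4 raised 2 and lowered 7 (median -0.39) and siRNA 6 raised 3 and lowered 3 (-0.03), while DDX39A siRNA 1 raised 5 and lowered 2 (0.42) and siRNA 4 raised 6 and lowered 1 (0.56). SARNP siRNA 3 raised 6 and lowered 2 (0.61), whereas siRNA 9 raised 1 and lowered 7 (-0.67). FIBP siRNA 6 raised 3 and lowered 3 (0.04) and siRNA 7 raised 0 and lowered 8 (-0.49), and TMEM259 siRNA 5 raised 4 and lowered 0 (0.31) and siRNA 6 raised 0 and lowered 3 (-0.14).

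Of the 6 genes, ANPEP and PAX2 had the widest range of control levels between tables. Scaled to gene reads per library (CPM), ANPEP stood at 40.3 and 43.7 CPM in the controls of the SART1 table, at 12.9 and 14.7 CPM in those of the DDX39A and SARNP table and at 26.2 and 25.6 CPM in those of the FIBP and TMEM259 table, a 3.04-fold range of means. PAX2 averaged 11.7, 21.1 and 7.98 CPM in the same order, a 2.64-fold range. Among genes listed in all 3 tables and above a floor on control CPM set from the PAX2 level, the median range was 1.21-fold. Of these genes 99.8% had a smaller range than ANPEP and 99.3% a smaller one than PAX2. Genes below that floor were left out of this comparison. CDH6 ranged 1.44-fold, PAX8 1.29-fold, GGT1 1.25-fold and MME 1.14-fold. The table, the sequencing run and the control cells used cannot be told apart here, so these values are given with no test. Divided by the merged exon length in GENCODE 29, GGT1 had the highest level of the 6 in the controls of every table, 22.8 to 28.4 CPM per kilobase, followed by PAX8 at 17.7 to 22.8. CDH6 lay at 4.69 to 6.75, ANPEP at 2.83 to 8.62, PAX2 at 1.28 to 3.38 and MME at 1.67 to 1.91 on that scale. These 4 changed places between tables: ANPEP stood above CDH6 in the SART1 table (8.62 against 5.95) and in the FIBP and TMEM259 table (5.32 against 4.69), and below CDH6 and PAX2 in the DDX39A and SARNP table.

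**Figure D4:**
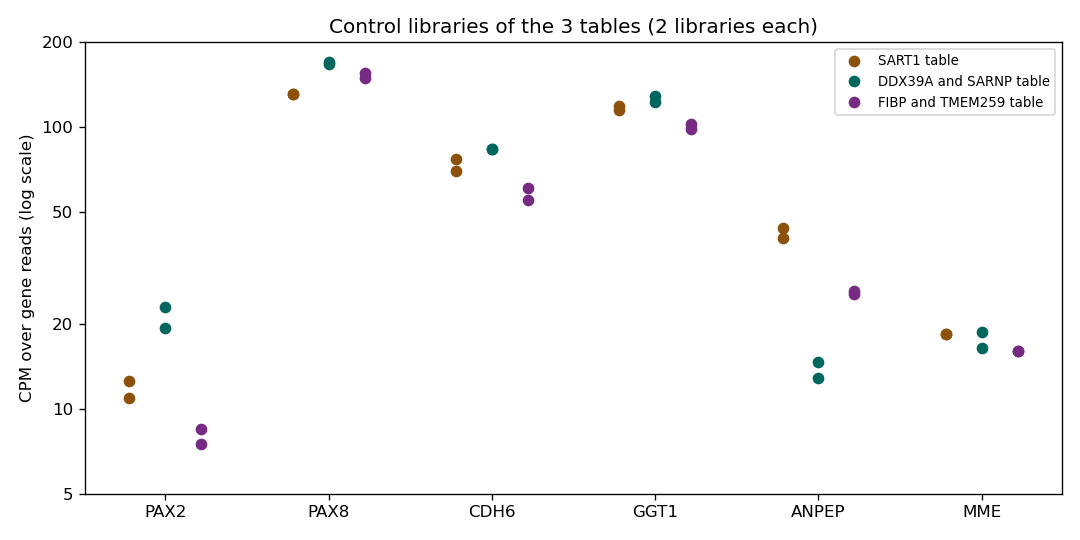
CPM over gene reads (log scale) of each gene in the 2 non-targeting control libraries of each table, with 1 dot per library. The tables stand apart for ANPEP and PAX2 and lie close together for MME, at 16.1 to 18.4 on average.

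Over the 26 libraries, with each gene's mean over its table taken off, the 6 genes did not move as 1 group. As a description, the Pearson correlation of log2 values was 0.76 for CDH6 and GGT1, 0.66 for ANPEP and MME and 0.63 for PAX2 and GGT1, but -0.36 for PAX2 and PAX8. The libraries share tables and controls, so no p is attached. Among 8871 genes the 3 most like each of the 6 were ALDH2 (0.95), RCN1 (0.92) and BSG (0.91) for GGT1, ATP11A (0.90), FHOD3 (0.89) and SEPT8 (0.85) for PAX8, and C3, SERPINE2 and PDLIM7 (0.90 each) for CDH6. They were EHD2 (0.86), ERCC2 (0.81) and TSPAN17 (0.80) for MME, TCF25 (0.83), HSPA12A (0.83) and AK5 (0.81) for PAX2, and SHARPIN (0.83), INF2 (0.83) and MLLT6 (0.82) for ANPEP.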

How the data were processed

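Directional poly(A) RNA libraries of 26 samples were read as paired ends of 42 bases, per the labels. Per the submitters' processing notes, the build was hg19 and the tools include STAR, Picard, HTSeq and DESeq2, with no version or role named; the annotation and the strand counted are not given in the sources used here. Each deposited value is a normalized signal: the authors divided the gene counts of a library by its size factor. All values came out as whole reads (tolerance 0.0001 of a read; 100% of values), so reads and depth were recovered, and CPM was computed from these. Entries that name no gene, 5.79% to 9.02% (no feature) and 1.57% to 1.82% (ambiguous) of these and the gene reads together, were kept apart. The SART1 table and the FIBP and TMEM259 table also held an entry of reads without a unique alignment, 2751214 to 8204986 per library. The design had foreseen these scaled values, so limma is the main test and count tests are alternatives.

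Genes averaging 10 or more in their table (11823, 11673 and 11768 in the SART1, DDX39A and SARNP, and FIBP and TMEM259 tables) were fitted with limma 3.58.1 in R 4.3.3 (lmFit, contrasts.fit, eBayes with trend), 1 model per table, on log2(value + 1), which understates changes of low genes. P-values are two-sided, Benjamini-Hochberg adjusted over all genes of a contrast, and called below 0.05. The prior degrees of freedom were 20.49, 31.85 and 38.37 in the same order of tables, against 3, 5 and 5 residual ones. The SEs and p-values therefore rest mostly on the spread of genes of like signal and less on a gene's own duplicates. The fits were also run on simulated counts with few changed genes and the same dispersion for every gene. In these data many more genes are called and the spread differs between groups, so that run is no check of the calls given here. Alternatives were DESeq2 1.42.0 and edgeR 4.0.16 (TMM) on the recovered reads, a pseudocount of 5, no filter, a filter at a mean of 50, quantile normalization, a fit of the compared groups alone, a replicate block and leaving out each library. The spread between the libraries of each group exceeded counting error (chi-square divided by degrees of freedom, 1.512 to 2.926).

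The 6 genes and the lists were chosen with earlier results of these data known. All 6 are named. From each list, up to 3 genes per target and direction were eligible if both siRNAs called them with 1 sign and their mean was at least 50, ranked by the smaller change, and the text gives a selection; 1 lineage factor, counted in its list, is not reported here by name. Likeness used genes with a mean of at least 50 in every table. Promoter windows are the 250 bases before RefSeq starts in GRCh38.p14, with no coordinates converted from hg19, and 5 of the 6 genes had an entry. Exon lengths and overlaps are from GENCODE 29. The labels "SARPN" and "FIPB" were read as SARNP and FIBP.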

Additional observations from a re-analysis of the deposited data

Results flagged for a closer look

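Several genes moved in opposite directions with the 2 siRNAs of a target, and the direct test of the 2 siRNAs called the difference. With SARNP siRNA 9 against siRNA 3 the log2 differences were -1.19 for PAX2, 0.70 for PAX8, -0.49 for CDH6 and -0.69 for GGT1. With TMEM259 siRNA 5 against siRNA 6 they were 0.66 for CDH6 and 0.68 for MME. With SART1 siRNA 4 against siRNA 6 it was -0.43 for CDH6. These 7 cases were picked by opposite calls against shared controls. That the higher siRNA lay above both controls and the other below both therefore adds little. Only for PAX8 and GGT1 with SARNP did both calls against controls hold under every alternative. Calls lost in at least 1 alternative were PAX2 with SARNP siRNA 9 and MME with TMEM259 siRNAs 5 and 6. The same held for CDH6 with SARNP siRNA 3, TMEM259 siRNA 6 and SART1 siRNA 4. What sets the siRNAs of a target apart was not tested.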

How the results depend on the processing

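Of 720 recomputed changes of the 6 genes against controls, 659 kept their direction and side of the threshold, 54 lost the call, 3 gained one and 4 turned, and 25 of the 42 called changes held under every alternative. DESeq2 called fewer genes over the whole table: 2441 with DDX39A siRNA 1 (3874 in the main test), 1544 with FIBP siRNA 6 (2660), 2515 with FIBP siRNA 7 (4009), 1552 with TMEM259 siRNA 5 (2684) and 1246 with TMEM259 siRNA 6 (2282), and, between siRNAs, 2624 for FIBP (4197), 2424 for TMEM259 (3776) and 2949 for SART1 (4553). Of the 6 genes DESeq2 called 3 with SARNP siRNA 3 (5), 0 with FIBP siRNA 6 (1) and 0 with TMEM259 siRNA 6 (2), and quantile normalization called 1 with TMEM259 siRNA 6 and 3 with SART1 siRNA 4 (6). The causes were not tested. Leaving out 1 library gave 1669 to 2168 called genes with FIBP siRNA 6, 1514 to 1876 with TMEM259 siRNA 5 and 1080 to 1716 with TMEM259 siRNA 6, and 2429 between the TMEM259 siRNAs without siRNA 6 replicate 1. Of the 6 genes it gave 3 to 4 with SARNP siRNA 3, 0 to 1 with FIBP siRNA 6, 2 to 4 with FIBP siRNA 7 and 0 to 2 with TMEM259 siRNA 6; those fits have fewer samples.

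The values that turned were all uncalled. With quantile normalization they were 0.066 for ANPEP in SARNP siRNA 9 against 3, and, for PAX2, 0.002 in FIBP siRNA 7 against 6, -0.061 in TMEM259 siRNA 5 against 6 and -0.044 in SART1 siRNA 4 against 6. With edgeR they were 0.003 for that ANPEP difference and -0.004 for PAX2 in TMEM259. Leaving out 1 library gave -0.027 to 0.16 for MME with DDX39A siRNA 4, -0.024 to 0.07 for PAX8 with FIBP siRNA 6 and -0.006 to 0.09 for ANPEP with TMEM259 siRNA 6. For PAX2 it gave -0.039 to 0.11 in DDX39A siRNA 4 against 1, -0.03 to 0.013 in FIBP siRNA 7 against 6, -0.146 to 0.19 in TMEM259 siRNA 5 against 6 and -0.124 to 0.14 in SART1 siRNA 4 against 6. For ANPEP it gave -0.10 to 0.075 in SARNP siRNA 9 against 3 and -0.19 to 0.006 in SART1 siRNA 4 against 6.

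The replicate numbers did not pair the libraries: over 23 pairs of groups the correlation of deviations ran from -0.06 to 0.055. With the replicate block FIBP siRNA 6 called 2508 genes, and of the 6 genes the count changed in 1 of 17 contrasts, TMEM259 against FIBP (2 in place of 3). Depth limits PAX2 in the FIBP and TMEM259 table (99 reads in each control), and ANPEP (155 and 174) and MME (197 and 223) in the DDX39A and SARNP table.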
